A study of Mus musculus with 65 samples.

Results

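The passage from juvenile to young adult spinal cord was examined in 10 ad libitum fed (AL) C57BL/6 mice of 6 months, aged 169 to 194 days, against 10 AL juveniles, aged 17 to 44 days. Members were chosen by the age and diet in the labels of each mouse, which gave 20 of the 65 arrays. Each group held 5 males and 5 females, and the juveniles comprised 5 mice of 17 to 21 days (2 males, 3 females) and 5 mice of 33 to 44 days (3 males, 2 females). Total RNA of the spinal cord of each mouse was labelled as radioactive cDNA and hybridized to its own nylon filter (the B filter of the NIA mouse 17K cDNA clone set), with 8448 spotted features. The other 45 arrays came from AL mice of 16 and 24 months (10 each) and from mice of 6 to 24 months on caloric restriction (CR), a reduced ration. No mouse carried a transgene or mutation named in the labels. The ages given in the study's methods are those of the adults, so the juveniles are known here from their labels. The titles give every mouse its own ID, and p-values measure the spread between them.

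In rodents the weeks around weaning are the last phase of spinal cord construction. Long tracts gain myelin from oligodendrocytes, neurons retract surplus synapses and stabilise the remainder on scaffold proteins, and the semaphorin and doublecortin families, which steer and shape young axons, are best known for their part in building this wiring. Glucocorticoid signalling, which acts through a nuclear receptor on many genes, takes on its adult daily rhythm around weaning.

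The deposited value of a feature is a Z score, its intensity on one array relative to the mean of all features on that array in units of that array's SD. The sources do not state the scale, which is taken to be logarithmic because Z scores as low as -8.58 occurred (on array 19, a 6 month male). A difference of 0.3 is therefore 0.3 SD of one filter, and no fold change can be read from it. The tissue was measured in bulk, so fewer cells of a type and less RNA per cell cannot be told apart. A single gene symbol was attached to 4875 features (57.7%), which covered 4209 genes. Of the 11 defining spinal cord markers looked for, the filter carried 1, the neurofilament light chain gene Nefl. Its feature with the higher signal (8738) had a lowest, median and highest Z of 0.12, 1.11 and 1.28 at 6 months, against 1.09, 1.16 and 1.30 in juveniles, so it was well above the filter mean on 9 of 10 adult arrays and on every juvenile array.

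Arrays numbered 22 to 43 and 66 to 67 in the titles separated from the rest on the first principal component, which held 36.0% of the variance once the outlying arrays 31 to 33 were set aside, and 3870 features (45.8%) differed between the blocks. The labels give no name for this array-number block. It held 2 of the 6 month mice and 4 of the juveniles, so both ages occurred on both sides. Without array 33 the second block keeps 1 adult (array 34) against 4 juveniles, so a difference within it has no spread among adults and is no repeat of the comparison. Array 33 (6 month male, replicate 3) stood apart from the other 19. Its median deviation from the feature medians was 0.48 Z units, against 0.06 to 0.10 on the others, and 153 of its spots lay more than 1.5 below the feature median. Array 16 (juvenile female, replicate 2) had 48 such spots, and the remaining 18 arrays had 3 to 9. For this reason each call from the limma fit on all 65 arrays is given beside the limma fit that adds the array-number block as a covariate and leaves out arrays 31 to 33, termed the block fit below.

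Few features passed the threshold between 6 month and juvenile cords, and all that did were lower at 6 months. Among 8448 features, 11 were lower (0.13%) and 0 were higher in 6 month mice at a Benjamini-Hochberg adjusted limma p of 0.05. In the block fit 20 were lower (0.237%) and 0 were higher, with 10 features called in both. At an unadjusted p of 0.05 the fits held 216 and 341 of the 8448 features in both directions together. The annotated ones among them were 58 higher and 52 lower on all arrays, and 93 higher and 98 lower in the block fit. By size alone, 75 features were higher by more than 0.3 on all arrays and 28 were lower by more than 0.3. In the block fit 55 were higher and 30 were lower by that size. The share of all features with a lower mean at 6 months was 52.1% on all arrays and 49.0% in the block fit. By the first steps of the study's selection (a mean Z above 0, a z-ratio of at least 1.5 and an unadjusted p of 0.05, without its later analysis of variance) 17 features were lower and 0 higher.

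**Figure D1:**
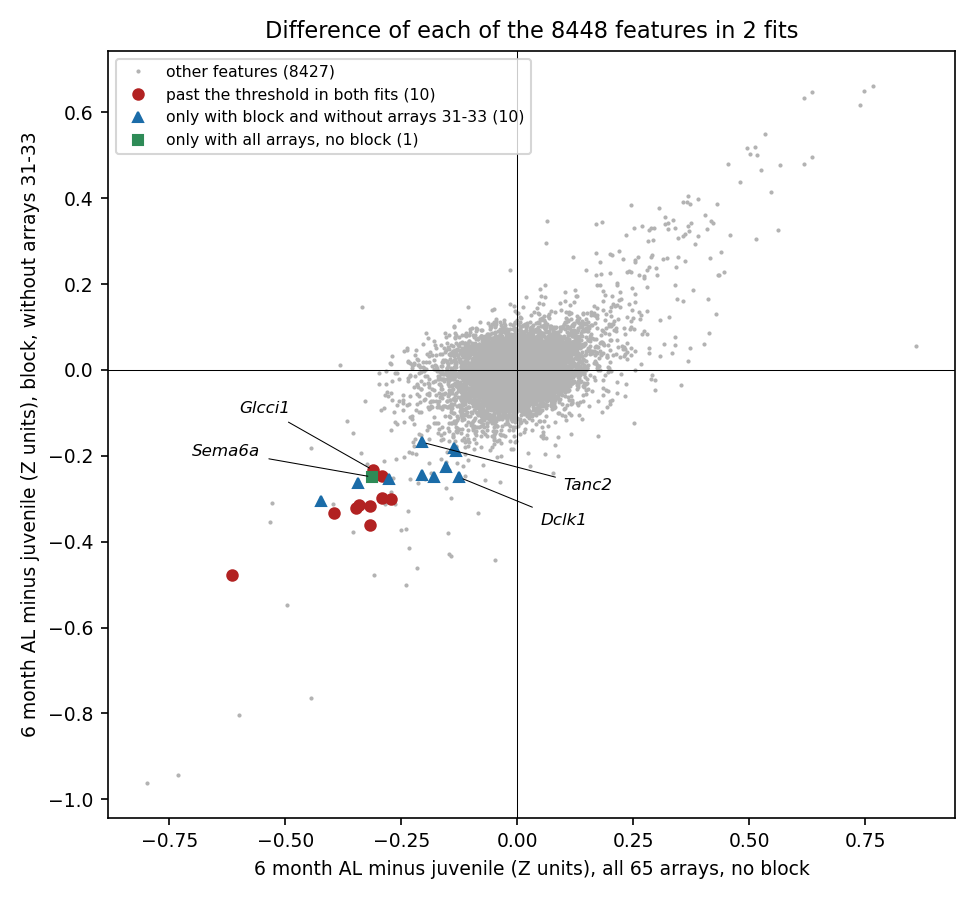
Difference of 6 month AL minus juvenile AL mice for each of the 8448 features in Z units, in the fit on all 65 arrays (x axis) and in the fit with the array-number block and without arrays 31 to 33 (y axis). The 10 features called in both fits, the 10 called only in the block fit and the 1 called only on all arrays (Sema6a) all lie below 0 on both axes.

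Glcci1, known as a glucocorticoid-induced transcript, was the only gene with a symbol to be called in both fits. Its Z scores in 6 month mice ranged between -1.04 and -0.04 with a median of -0.165, against a range of -0.16 to 0.22 and a median of 0.08 in juveniles. Every 6 month mouse lay below the juvenile mean, and 5 of 10 lay below the lowest juvenile. Array 33 gave the value of -1.04, while the next lowest adult was at -0.28. The mean was -0.253 ± 0.287 in 6 month mice and 0.058 ± 0.109 in juveniles (SD, n = 10 each). Glcci1 thus fell by 0.311 (SE 0.0672, limma adjusted p = 0.0194) on all arrays, and fell by 0.233 (SE 0.0512, adjusted p = 0.0182) in the block fit. The difference was -0.227 without array 33 (limma adjusted p = 0.0327), -0.200 within the first block and -0.255 for array 34 alone against the 4 juveniles of the second. The call was lost from the fit on all arrays without juvenile female 2 (limma adjusted p = 0.0775), juvenile male 3 (0.0720) or 6 month female 4 (0.0619). It was lost from the block fit without any of these 3 mice or without 6 month males 2 or 4, at adjusted p between 0.0526 and 0.0761. With only the 20 arrays of these ages, the adjusted limma p for Glcci1 was 1.00.

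The other 7 measured genes of the circadian clock and glucocorticoid response gave no call. Nr3c1, the glucocorticoid receptor, had a median of 0.34 at 6 months and 0.37 in juveniles and differed by -0.101 on all arrays and -0.034 in the block fit. Fkbp5, a co-chaperone of that receptor and one of its targets, had a median of -0.685 at 6 months and -0.62 in juveniles and differed by 0.039 and 0.057. Over the 8 genes the median difference was -0.038 with 3 genes higher, and -0.0184 with 3 higher in the block fit. Over all 4209 annotated genes it was -0.008 with 1855 higher, and 0.0044 with 2282 higher.

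**Figure D2:**
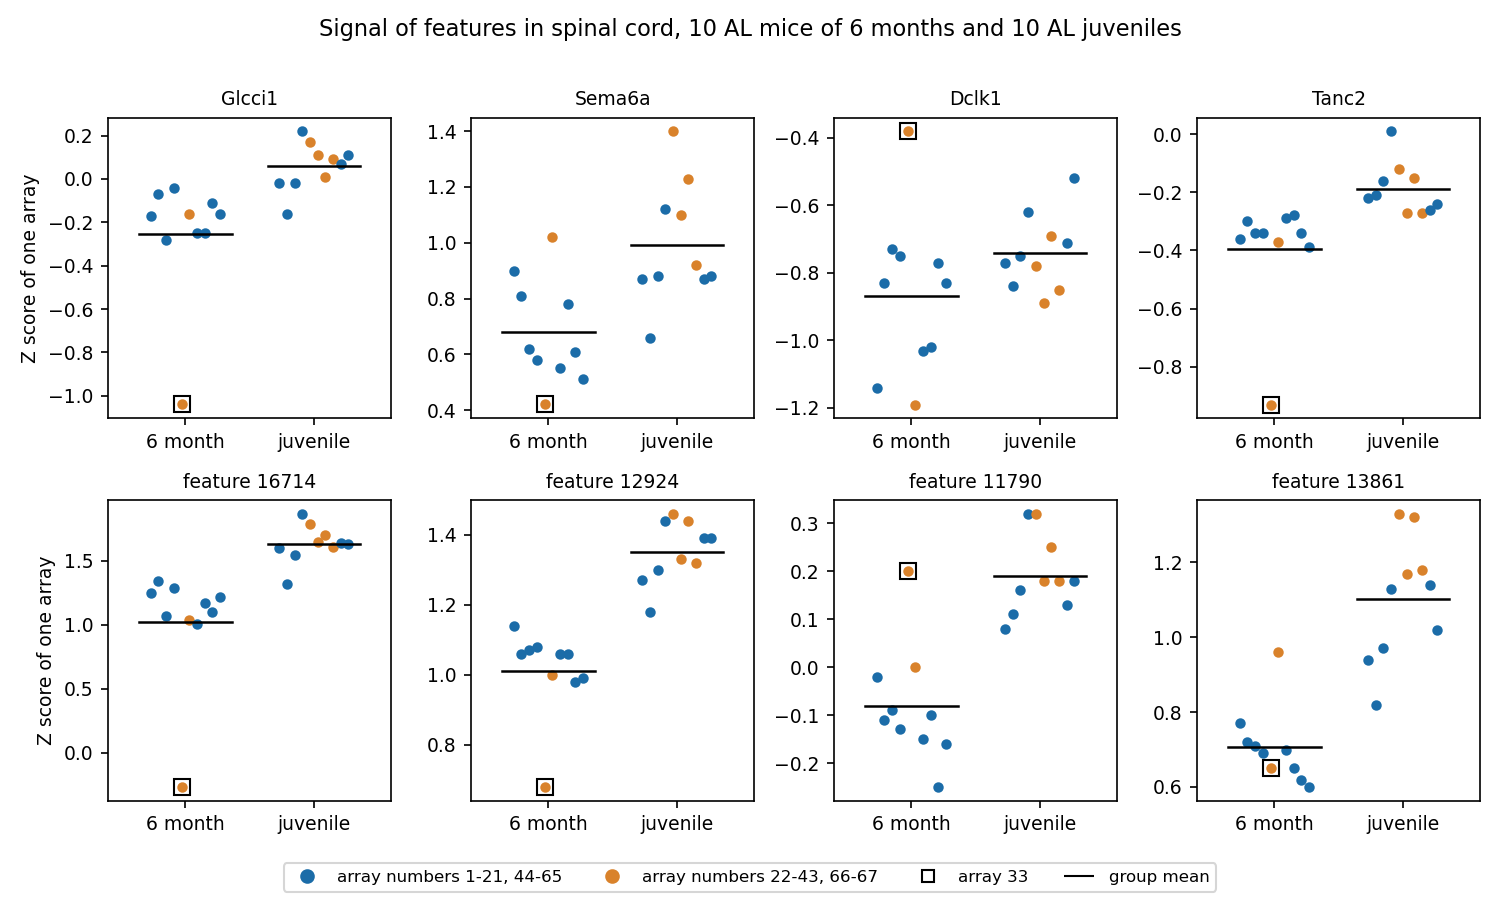
Z score of single arrays (points) for 4 named genes and 4 features without a gene symbol in the 10 AL mice of 6 months (left of each panel) and the 10 AL juveniles (right), coloured by array-number block, with group means as lines and array 33 boxed. Tanc2 and feature 12924 show no overlap of the ages, and array 33 is the lowest 6 month value for Glcci1, Sema6a, Tanc2, 12924 and 16714 but the highest for Dclk1 and 11790.

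Sema6a, a transmembrane semaphorin that acts as a repellent and as a receptor in axon guidance, was called on all arrays only. Its lowest, median and highest Z scores were 0.42, 0.615 and 1.02 in 6 month mice, against 0.66, 0.90 and 1.40 in juveniles. The ages overlapped, with 6 adults below the lowest juvenile and 4 juveniles above the highest adult. The mean was 0.680 ± 0.189 in 6 month mice and 0.993 ± 0.216 in juveniles (SD, n = 10 each), a difference of -0.313 (SE 0.0680, limma adjusted p = 0.0194). In the block fit Sema6a differed by -0.249 (limma adjusted p = 0.0833). It differed by -0.210 within the first block and by -0.143 for array 34 alone, the highest adult, within the second. The call on all arrays was also lost without any 1 of 8 mice, at adjusted p of up to 0.123: juvenile males 3 and 4, juvenile females 2 and 3, 6 month males 3 and 4, and 6 month females 2 and 5. The juveniles themselves were uneven for Sema6a, with a mean of 0.884 at 33 to 44 days and 1.10 at 17 to 21 days. Juvenile age and block were mixed here. In the first block the younger juveniles read 0.66 and 1.12, and the older ones 0.87 to 0.88. In the second block the younger juveniles read 1.10 to 1.40 and the older one 0.92.

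Sema6a was the only call among 21 measured axon guidance genes, of which 7 had a higher mean at 6 months on all arrays and 12 in the block fit. Sema3a, a secreted repellent of growing axons, had a median of -1.35 at 6 months and -1.41 in juveniles and differed by 0.132 on all arrays and 0.063 in the block fit. Plxna2, a plexin that receives semaphorin signals, had a median of 0.305 at 6 months and 0.405 in juveniles and differed by -0.089 and -0.035. Neither passed the test. Among 27 genes of neurite outgrowth and neural development 0 were called, and Numb, a cell fate determinant of the Notch pathway, differed by -0.140 on all arrays and -0.047 in the block fit.

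Dclk1 encodes a doublecortin-like kinase that binds microtubules and is abundant in young, migrating neurons. It was called in the block fit only. Its lowest, median and highest Z scores were -1.19, -0.83 and -0.38 in 6 month mice, against -0.89, -0.76 and -0.52 in juveniles. Array 33 held the highest adult value, above every juvenile, and 4 of the other 9 adults lay below the lowest juvenile. On all arrays Dclk1 differed by -0.125 (SE 0.0796, limma adjusted p = 0.986), and in the block fit it fell by 0.250 (SE 0.0553, adjusted p = 0.0182). It differed by -0.186 within the first block and by -0.388 for array 34 alone, the lowest adult, within the second. The call was lost in 7 of 19 block fits that each omitted 1 mouse (6 month males 1 and 4, 6 month females 3 and 4, juvenile males 3 and 4, juvenile female 5), with adjusted limma p of up to 0.113. Unnamed feature 8908, which lies 22 feature numbers away, was also called, and the 8 neighbours examined around Dclk1, 8908 among them, included 4 with a lower mean at 6 months on all arrays and 8 in the block fit.

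Tanc2, a scaffold protein of the postsynaptic density, was called in the block fit only, and it was the only named call whose ages did not overlap. The lowest, median and highest Z scores were -0.93, -0.34 and -0.28 in 6 month mice, against -0.27, -0.215 and 0.01 in juveniles. All 10 adults were below the lowest juvenile, a pattern shown by 5 of 8448 features (0.0592%), while 0 features had every adult above the highest juvenile. The mean was -0.394 ± 0.192 in 6 month mice and -0.189 ± 0.0875 in juveniles (SD, n = 10 each). Tanc2 differed by -0.205 on all arrays (SE 0.0540, limma adjusted p = 0.262), and fell by 0.168 in the block fit (SE 0.0381, adjusted p = 0.0238). It differed by -0.150 within the first block and by -0.168 for array 34 alone within the second. The call was lost in 6 of 19 block fits that each omitted 1 mouse (6 month males 1 and 5, 6 month female 5, juvenile males 3 and 4, juvenile female 2), with adjusted limma p of up to 0.125. A second Tanc2 feature (11260), far brighter at a median of 1.07 in 6 month mice and 1.01 in juveniles, did not pass and differed by 0.017 on all arrays and 0.050 in the block fit. The 2 clones therefore disagreed on this gene.

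The promoters of the called genes with a sequence at hand are shown because the letters before their start sites differ widely. They are the 250 bases upstream of the first annotated start, 5' to 3' on the plus strand, from RefSeq on build GRCm38.p6, and 3 of the 4 genes were matched. Capitals mark the GC box GGGCGG, searched on both strands with overlapping matches counted.
Glcci1 (chr6:8509350-8509599): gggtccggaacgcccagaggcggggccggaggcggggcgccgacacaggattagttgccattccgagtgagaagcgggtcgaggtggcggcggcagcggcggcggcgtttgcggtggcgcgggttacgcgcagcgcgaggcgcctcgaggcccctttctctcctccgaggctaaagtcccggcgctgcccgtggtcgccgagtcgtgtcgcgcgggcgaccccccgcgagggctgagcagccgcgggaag
Dclk1 (chr3:55242114-55242363): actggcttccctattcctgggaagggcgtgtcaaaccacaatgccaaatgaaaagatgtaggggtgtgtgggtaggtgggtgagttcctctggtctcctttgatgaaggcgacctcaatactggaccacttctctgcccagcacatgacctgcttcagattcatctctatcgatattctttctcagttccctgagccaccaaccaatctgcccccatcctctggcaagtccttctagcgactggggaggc
Tanc2 (chr11:105589736-105589985): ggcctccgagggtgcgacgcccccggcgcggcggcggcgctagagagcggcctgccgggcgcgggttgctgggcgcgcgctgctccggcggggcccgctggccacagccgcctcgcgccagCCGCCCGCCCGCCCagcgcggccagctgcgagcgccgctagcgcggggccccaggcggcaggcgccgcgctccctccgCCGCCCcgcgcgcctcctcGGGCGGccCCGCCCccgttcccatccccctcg
The stretch before Tanc2 was 85.6% G and C and held 6 GC boxes, that of Glcci1 was 74.4% G and C and held 0, and that of Dclk1 was 52.4% G and C and held 0. Over 32851 promoter stretches of this length the median G and C content was 52.4% (quartiles 45.2% and 61.2%), and 32.7% held the box. The glucocorticoid response palindrome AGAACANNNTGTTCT was found in 0 of these 3 windows and in 0.00913% of all stretches, and the E-box CACGTG in 0 of 3 and in 6.02%. Glcci1 and Dclk1 each have another annotated start, not shown.

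The remaining calls had no gene symbol, 9 of the 11 on all arrays and 17 of the 20 in the block fit. Those given by number here were chosen after their values were seen. Feature 12924 had Z scores of 0.68, 1.06 and 1.14 (lowest, median, highest) in 6 month mice, against 1.18, 1.36 and 1.46 in juveniles, with no overlap of the ages. It fell by 0.340 (SE 0.0499, limma adjusted p = 6.7e-05) on all arrays and by 0.314 (SE 0.0403, adjusted p = 1.2e-06) in the block fit. It passed in all 16 alternative fits and in all 20 fits that omitted 1 mouse, and it was the only feature called when juveniles of 33 to 44 days alone were the reference. Feature 16714 had the greatest difference of the 11, with Z scores of -0.27, 1.135 and 1.34 in 6 month mice against 1.32, 1.635 and 1.87 in juveniles. It fell by 0.614 on all arrays and by 0.477 in the block fit, and array 33 was the -0.27. Feature 11790 had Z scores of -0.25, -0.105 and 0.20 in 6 month mice, with array 33 highest, against 0.08, 0.18 and 0.32 in juveniles. It fell by 0.272 and 0.299, feature 13861 fell by 0.395 and 0.334, and feature 8908, whose highest adult (0.84) lay below the lowest juvenile (0.88), fell by 0.318 and 0.361. With features 9723, 10354 and 14016, these 8 passed in every fit that omitted 1 of the 20 mice, both on all arrays and in the block fit.

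The called features had some measures in common, given here as description. Among the 21 called in either fit, 15 had a mean Z above 0, against 48.4% of all features. After group and block means were removed, their values moved together across the 62 arrays of the block fit, with a median pairwise Pearson r of 0.448 among the 20 called there (lowest -0.267, highest 0.885). Glcci1 was apart from that set, with a median r of 0.076 and a highest r of 0.633, with feature 16714. These correlations share arrays and array-wide scaling, and they come from the residual spread that the test also uses. They are a description only, with no r among uncalled features set beside them. Features most like Glcci1 by this measure were unnamed 16164 (r 0.724), unnamed 16780 (r 0.670) and Smarcc1 (r 0.660), a chromatin remodelling subunit. The signal of the filter repeats with a period of 22 feature numbers, and 5 of the 20 features called in the block fit shared position 20 of 22, which holds 4.55% of all features. They were Dclk1, Tanc2 and features 8908, 9128 and 11790, and this position was picked out with the calls known. Of 168 numbered neighbours of the called features (1, 2, 22 and 44 numbers away), 100 were lower at 6 months on all arrays and 115 in the block fit. Over all features the shares that were lower were 52.1% and 49.0%. Some of these neighbours were themselves called features, such as 8908 beside Dclk1. An alternative fit centred the values on filter positions, and every called feature kept a lower mean at 6 months in it. The part of filter position in the calls was not tested further.

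Across the later ages the means of the called genes are given in order of age. These means are not adjusted for the array-number block, and the share of mice in the second block differed between the ages. Glcci1 averaged 0.070 at 17 to 21 days, 0.046 at 33 to 44 days, -0.253 at 6 months, -0.221 at 16 months and -0.317 at 24 months. Tanc2 averaged -0.148, -0.230, -0.394, -0.373 and -0.378 at the same ages. Sema6a averaged 1.10, 0.884, 0.680, 0.825 and 0.882, so its 24 month mean was close to that of the older juveniles. Dclk1 averaged -0.764, -0.720, -0.867, -0.840 and -0.902. In the first block its values ran from -0.84 to -0.52 in juveniles and from -1.14 to -0.73 at 6 months. They ran from -0.79 to -0.66 at 16 months and from -0.78 to -0.63 at 24 months there. In the second block they ran from -0.89 to -0.69 in juveniles, -1.17 to -0.89 at 16 months and -1.1 to -0.96 at 24 months. In 6 month CR mice (n = 8) the means were -0.213 for Glcci1, -0.486 for Tanc2, 0.691 for Sema6a and -0.878 for Dclk1. Against the same juveniles, the block fit gave Glcci1 differences of -0.291 in 6 month CR mice (limma adjusted p = 0.00706), -0.279 at 16 months (adjusted p = 0.000360) and -0.371 at 24 months (adjusted p = 2.0e-06). Unnamed feature 16714 averaged 1.67, 1.61, 1.02, 1.07 and 0.994 in order of age, and feature 12924 averaged 1.37, 1.33, 1.01, 1.06 and 1.15. These comparisons share their juveniles with the 6 month AL comparison, so they are set side by side and are no independent repeats of it.

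**Figure D3:**
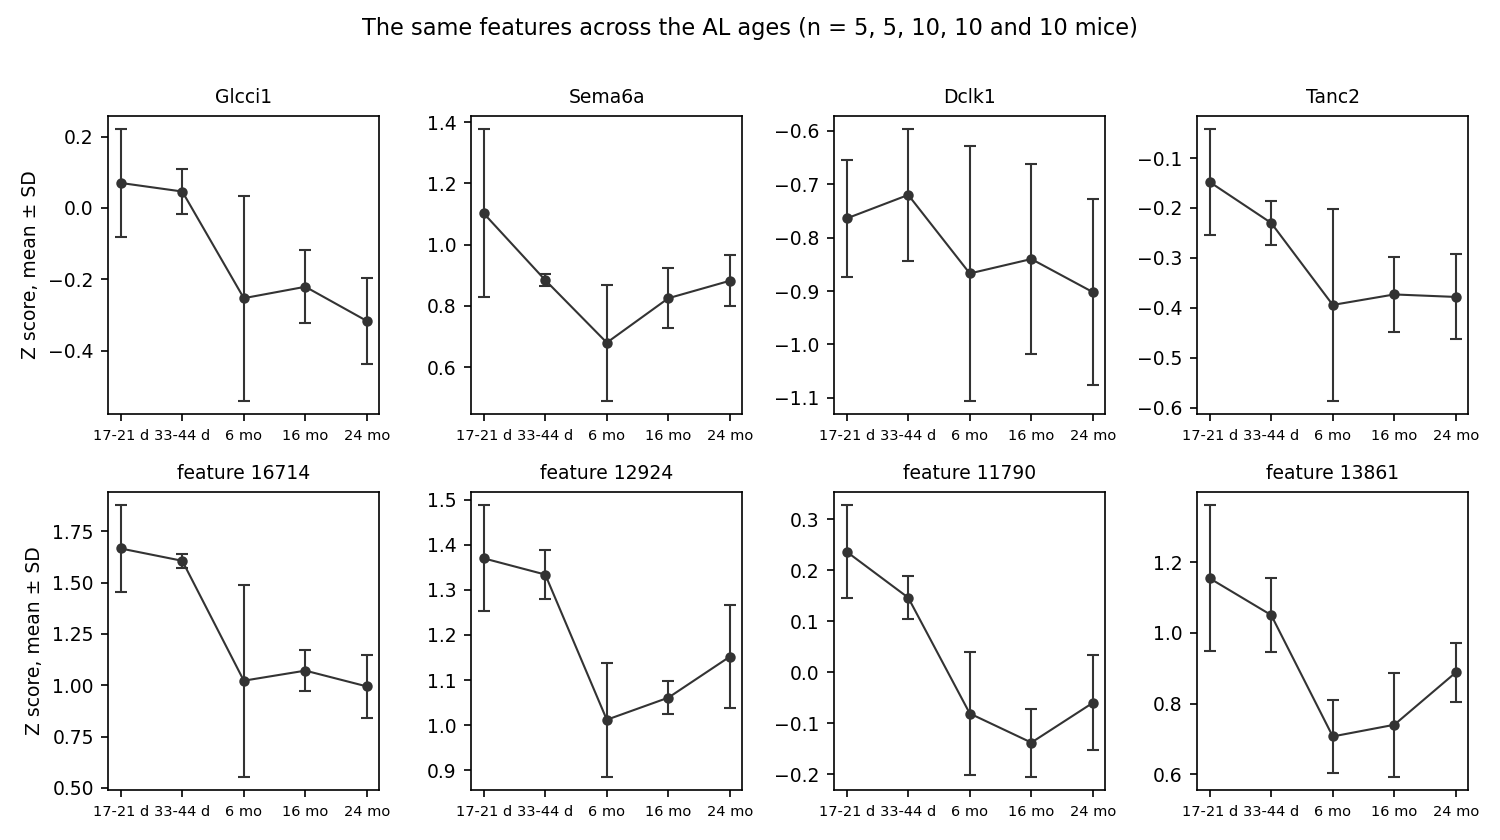
Mean Z score with SD of the same features in AL juveniles of 17 to 21 and 33 to 44 days (n = 5 each) and in AL mice of 6, 16 and 24 months (n = 10 each). Means are not adjusted for the array-number block, whose share differs between the ages. Glcci1 drops below 0 between 33 to 44 days (0.046) and 6 months (-0.253) and is at -0.317 at 24 months, whereas Sema6a is lowest at 6 months (0.680).

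No gene with a symbol was called higher at 6 months. The smallest p in that direction belonged to Ssbp1, a mitochondrial protein that binds single-stranded DNA, with a median of -2.02 in 6 month mice and -2.20 in juveniles and a difference of 0.417 (limma adjusted p = 0.832). Rad18, a ubiquitin ligase of DNA damage tolerance, had a median of -1.02 at 6 months and -1.38 in juveniles and differed by 0.373, and by 0.387 in the block fit (limma adjusted p = 0.150). Spag9, a scaffold of JNK signalling, differed by 0.254 and 0.256, and Kdm5b, a histone H3 lysine demethylase, by 0.439 and 0.274. Mtap, Platr26, Ubqln4, Pacsin2, Zfp334 and Chd6 completed the 10 smallest p, with differences between 0.127 and 0.263. In the block fit Chd6 differed by 0.0955 and Ubqln4 by 0.155. Without array 33 Mtap differed by 0.0753 in place of 0.127, and Chd6 by 0.155 in place of 0.243. Each of these 10 features had a median Z below 0 in both ages. Second clones did not repeat the size of these differences, at 0.044 for Rad18, -0.006 for Ssbp1, 0.095 for Kdm5b and -0.041 for Spag9.

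Among genes that did not pass in the other direction, Gsn was nearest. Gelsolin severs actin filaments and in the cord is found in oligodendrocytes. Gsn had a lowest, median and highest Z of -0.76, 0.235 and 0.44 in 6 month mice, against 0.31, 0.475 and 0.64 in juveniles, with 8 adults below the lowest juvenile. It differed by -0.324 on all arrays (SE 0.0879, limma adjusted p = 0.343) and by -0.219 in the block fit (adjusted p = 0.0762). Ermp1, an endoplasmic reticulum metallopeptidase, differed by -0.139 and by -0.153 in the block fit (limma adjusted p = 0.0833). Wwc1 (the synaptic protein KIBRA) at -0.195, Desi1 at -0.179, Kif3a (a motor subunit of kinesin-II) at -0.220, Dnajc15 at -0.131 and Aplp2 (amyloid precursor-like protein) at -0.151 also missed the threshold. Without array 33 Aplp2 differed by -0.0695. Other clones of Kif3a gave 0.011 and 0.087, and another of Aplp2 gave -0.027.

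Cell type markers gave 0 calls in either fit. Of 8 oligodendrocyte and myelin genes, 1 was higher at 6 months on all arrays (median difference -0.062) and 3 in the block fit (median -0.0087). Car2, the carbonic anhydrase of oligodendrocytes, had a median of -0.095 at 6 months and -0.075 in juveniles; its difference of -0.204 on all arrays was 0.007 in the block fit, and array 33 read -2.25. Of 10 astrocyte genes 3 were higher on all arrays and 7 in the block fit, and of 8 microglia and macrophage genes 2 and 6, with medians of 0.0099 and 0.0219 in the block fit. C1qc, a complement chain made by microglia, differed by 0.032 and 0.071. The 5 neuronal genes had 1 higher in each fit (medians -0.064 and -0.0429), and Nefl differed by -0.148 and -0.054 at one feature and by -0.230 and -0.062 at the other. Gabra3, a GABA-A receptor subunit, differed by -0.151 and -0.087. Of 61 cell cycle and replication genes, 26 were higher on all arrays and 38 in the block fit, with Orc1 and Orc6, subunits of the origin recognition complex, at 0.132 and 0.108 in that fit.

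**Figure D4:**
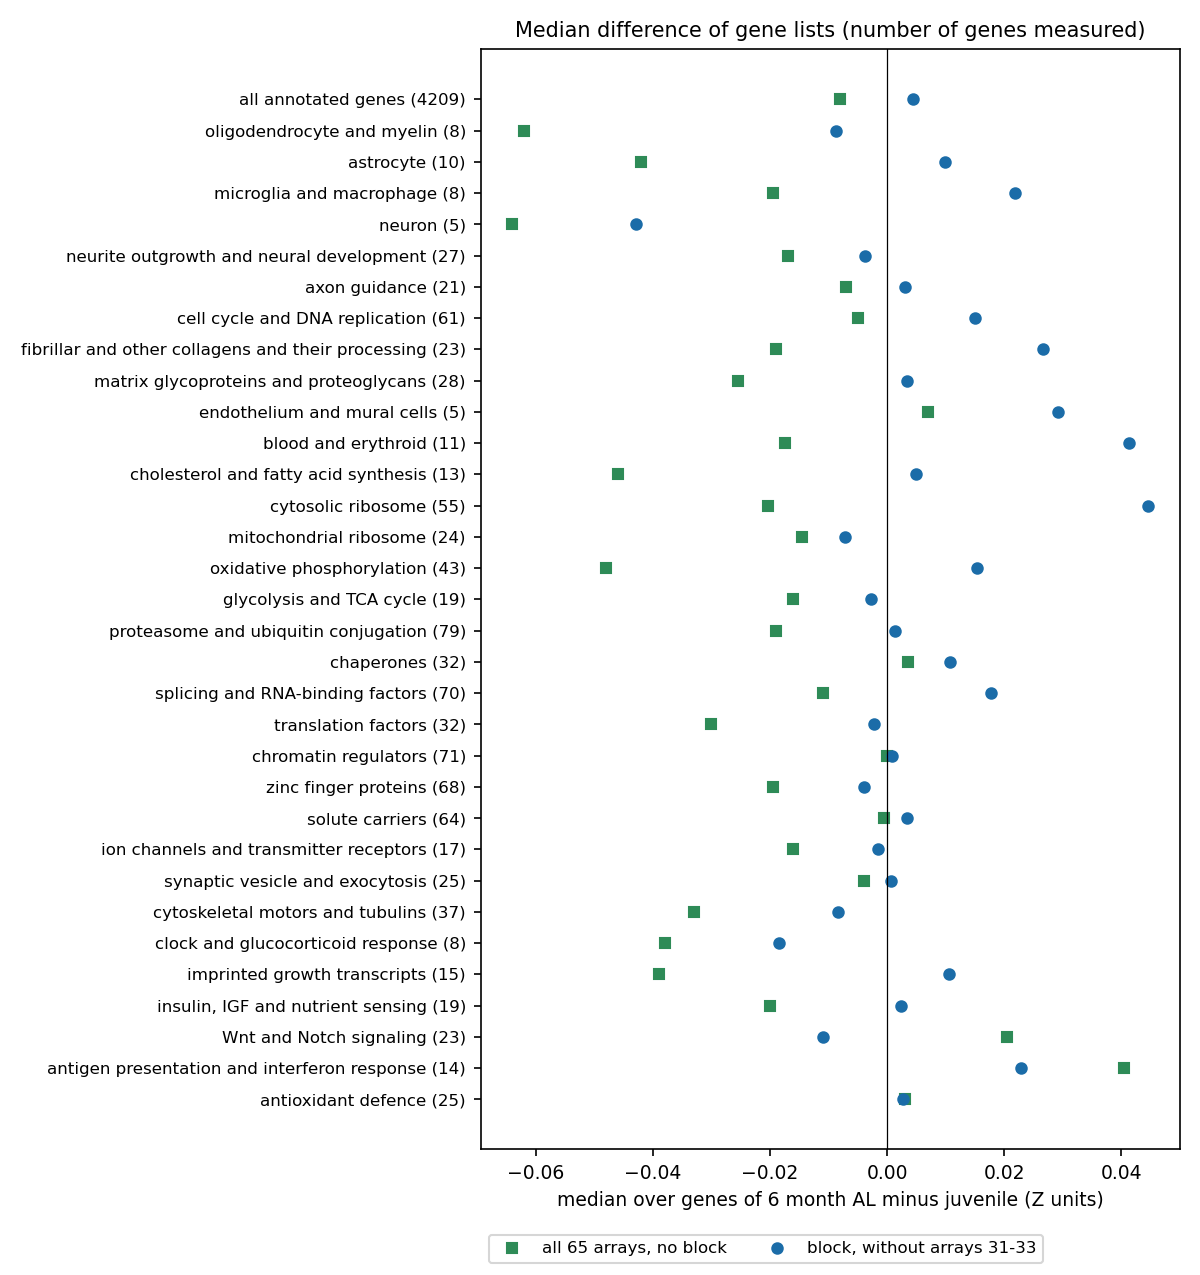
Median over genes of the difference of 6 month AL minus juvenile AL mice in Z units, in the fit on all arrays (squares) and in the block fit (circles). Rows are all annotated genes and each gene list with 5 or more measured genes (number in brackets). Of all 37 lists, including the smaller ones not drawn, 28 have a median below 0 on all arrays and 22 a median above 0 in the block fit.

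Of the 37 lists with a measured gene, 20 changed the sign of their median between the fits, with medians of -0.148 to 0.0715 on all arrays and -0.0557 to 0.0570 in the block fit. Both lowest values come from a Schwann cell list of 1 gene, and both highest from a skeletal muscle list of 4 genes. The widest swing in a large list was that of the cytosolic ribosome, whose proteins make up both subunits of the translation machinery. Of its 55 genes, 18 were higher at 6 months on all arrays (median -0.0203) and 53 in the block fit (median 0.0446). Without array 33 alone 52 were higher (median 0.047), and within the first block 54 (median 0.0456). Within the second block 44 were higher (median 0.0825) on array 34, the only adult left there and the adult with the highest ribosome mean. With the block as a covariate but array 33 kept, 11 were higher (median -0.0392). None of the 99 features of these genes passed the threshold in either fit, and 1 on all arrays and 18 in the block fit were higher at an unadjusted p of 0.05, against 58 and 93 of all 4875 annotated features. Rpl35a, a protein of the large subunit, had a median of 0.02 at 6 months and -0.055 in juveniles and differed by 0.111 and 0.086.

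The mean Z of the 55 ribosome genes was -0.177 on array 33 and lay between 0.435 and 0.505 (median 0.463) in the other 9 adults, against 0.326 to 0.489 (median 0.421) in juveniles. The ages overlapped. For 43 oxidative phosphorylation genes, which encode the respiratory chain, the mean was -0.229 on array 33 and 0.269 to 0.381 (median 0.319) in the other adults, against 0.226 to 0.373 (median 0.310) in juveniles. Of these, 9 were higher at 6 months on all arrays (median -0.048) and 32 in the block fit (median 0.0153).

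**Figure D5:**
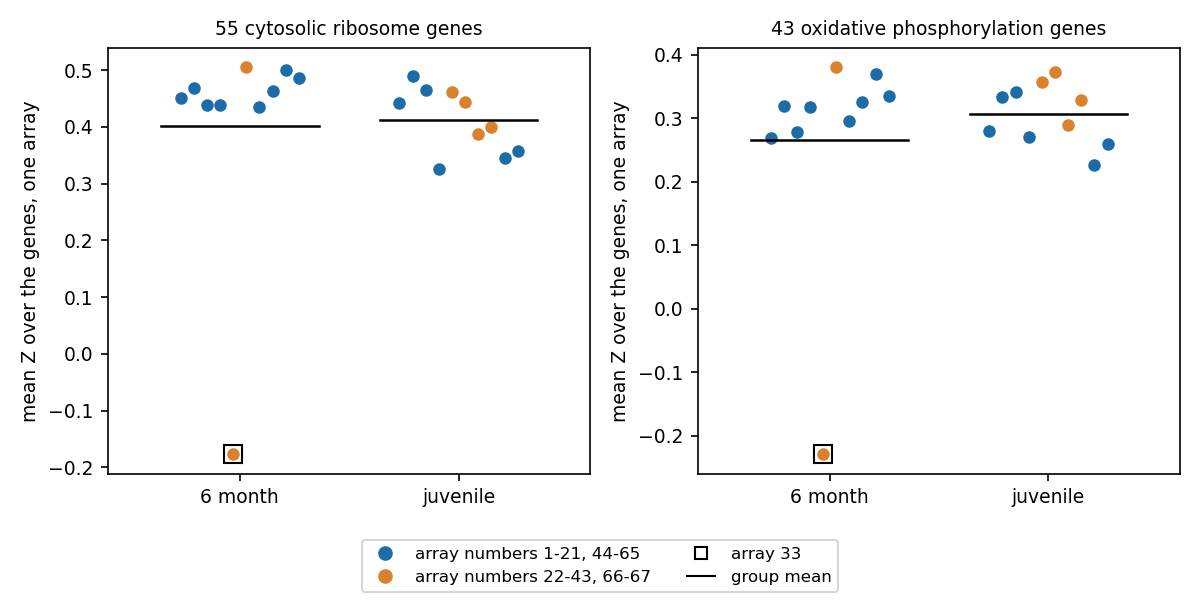
Mean Z score over 55 cytosolic ribosome genes (left) and 43 oxidative phosphorylation genes (right) on each array, for 10 AL mice of 6 months and 10 AL juveniles, with group means as lines and array 33 boxed. Array 33 lies at -0.177 and -0.229, far below the other adults, which start at 0.435 and 0.269.

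The step did not differ between males and females at the threshold. For the sex difference 0 features passed in either fit (smallest limma adjusted p 0.964), with 269 at an unadjusted p of 0.05 on all arrays and 230 in the block fit. The smallest p belonged to Ror1, a receptor tyrosine kinase-like protein, whose difference was 1.31 greater in males. Cstf3 followed at 3.24 and Btd, which encodes biotinidase, at 0.320. For Glcci1 the step was -0.202 in males minus females (limma adjusted p = 0.964), and -0.038 in the block fit. Mean Glcci1 levels were -0.370 in 6 month males against 0.042 in juvenile males, and -0.136 in 6 month females against 0.074 in juvenile females.

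Within the juveniles, mice of 33 to 44 days were set against those of 17 to 21 days. Again 0 features passed in either fit (smallest limma adjusted p 1.00), with 183 at an unadjusted p of 0.05 on all arrays and 272 in the block fit. Of the younger mice 3 of 5, and of the older 1 of 5, belonged to the second array-number block. Sema6a was 0.251 lower in the older juveniles and Glcci1 0.018 lower, neither past the threshold. The smallest p were those of Atp2b1, a plasma membrane calcium pump, at -1.79, a second Aplp2 feature (16351) at 0.280 and Bmpr1a, a receptor for bone morphogenetic proteins, at -0.188. Juvenile values of Atp2b1 ran from -5.53 to -2.12. On several arrays Atp2b1 and Cstf3 held the same value, such as -2.26 in juvenile females 1 and 2. Whether such values are a floor of the array signal was not tested. The cytosolic ribosome genes had a median of -0.0394 in older minus younger juveniles.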

How the data were processed

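Deposited Z scores of 65 spinal cord arrays, 1 per mouse, were used as scores, taken to be on a log scale. Per the study's methods and labels, the authors extracted filter intensities with ArrayPro and scaled each array to mean 0 and SD 1; the log base, background treatment and raw intensities are not given in the sources used here, so the depth is unknown and precision is limited by how many arrays there are. All values were fitted in limma 3.58.1 (R 4.3.3) with 14 group means for age, diet and sex, sexes weighted equally, and p-values adjusted by Benjamini-Hochberg over 8448 features. The block fit added the array-number block and omitted arrays 31 to 33. Alternatives covered weights, normalization, filters, subsets and each mouse left out. Scripts were tested on simulated data. Members, gene lists and tests were chosen with earlier results of these data known. Named genes were those with 1 symbol called in either fit, the 10 smallest p per direction, the 3 smallest p of the other tests, and list members. Symbols came from the platform annotation, of which 4861 features matched RefSeq by Entrez number. Cross-hybridization of cDNA clones to related genes, such as ribosomal paralogs, cannot be told apart from the named gene. The design text speaks of more mice than the 65 analysed here, and the other filter was not analysed here. The label states another phosphorus isotope than the methods. The description of array 27 is that of array 1 (correlation of the 2 arrays 0.960).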

Additional observations from a re-analysis of the deposited data

Results flagged for a closer look

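Values far from the rest of their group of 10 were looked for in 116 groups (58 features, 2 ages), and 24 were found, where chance alone would mark about 1 in 20 groups. Array 33 (6 month male, replicate 3) gave 21 of the 24. Among called genes, array 33 read -1.04 for Glcci1 (next adult -0.28) and -0.93 for Tanc2 (next -0.39). Among called features with no symbol it read 0.68 for 12924 (next 0.98), 0.04 for 14016 (next 0.39) and -0.27 for 16714 (next 1.01), and it was the highest adult for 8679 at 2.33 (next 1.29), 9128 at 1.42 (next 0.90), 10463 at -0.07 (next -0.32) and 10893 at 1.36 (next 0.99).

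Array 33 was also flagged as the highest adult for Ssbp1 at -1.15, Mtap at 0.30, Platr26 at -0.69 and Chd6 at -0.21. These are 4 of the 10 genes with the smallest p for a higher level at 6 months. Among the same 10 genes array 33 was the highest adult, without being flagged, for Ubqln4 at -0.13 (next -0.24), Pacsin2 at -0.67 (next -0.79) and Zfp334 at -0.02 (next -0.17). It was flagged as the lowest adult for Gsn at -0.76, Desi1 at -1.23, Kif3a (feature 10823) at 0.38, Aplp2 (12315) at -0.71, Nefl at 0.12 (8738) and -0.79 (8756), Numb at -0.38 and Car2 at -2.25. The 3 values from other arrays were 0.96 on array 34 for feature 13861 at 6 months (next adult 0.77), -3.95 on array 59 for Atp2b1 at 6 months (next -2.62), and -0.72 on array 56 for Desi1 in juveniles (next -0.59). Without array 33 the differences of the called features listed here were -0.227 for Glcci1, -0.145 for Tanc2, -0.302 for 12924, -0.305 for 14016, -0.476 for 16714, -0.271 for 8679, -0.246 for 9128, -0.171 for 10463 and -0.181 for 10893, against -0.311, -0.205, -0.340, -0.347, -0.614, -0.153, -0.179, -0.136 and -0.132 with it.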

How the results depend on the processing

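No feature was called higher at 6 months in any alternative, including the steps of the study's selection used here and each fit without 1 mouse. The 11 lower features on all arrays became 20 in the block fit, 5 with only the 20 arrays of these ages, 24 with array weights, 1 with only juveniles of 33 to 44 days, 6 by the methods' t-test after adjustment (138 features at its unadjusted threshold) and 17 by those steps; fits without 1 mouse gave 9 to 12. Block-fit fits without 1 mouse gave 12 to 23, with 12 without 6 month male replicate 4. Against the same juveniles, 1 feature higher in 6 month CR mice became 2 with the block and 2 with weights, where lower features numbered 14. At 16 months 2 higher became 4 with the block, 23 in the block fit and 31 with weights, and 10 lower became 16, 30 and 29. At 24 months 2 higher became 4, 35 and 45, and 3 lower became 29 in the block fit and 73 with weights. Tests of sex and of juvenile age gave 0 throughout. The cause of these shifts was not tested.

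Signs turned for second clones and uncalled genes. With only the younger juveniles Atp2b1 was -0.218 (0.618 on all arrays) and Aplp2 (16351) 0.131 (-0.027). With only the older, Bmpr1a was 0.0445 (-0.041), Fkbp5 -0.047 (0.039), Ssbp1 (9710) 0.033 (-0.006) and Tanc2 (11260) -0.0085 (0.017). In the block fit Car2 was 0.00703 (-0.204), Ssbp1 0.052, Kif3a (10745) -0.00052 (0.011) and Spag9 (16451) 0.064 (-0.041), which was 0.042 with the block alone. Without array 33 or without arrays 31 to 33, Aplp2 was 0.01, Car2 0.0115, Ssbp1 0.058 and Kif3a (12744) -0.011 (0.087). With weights Aplp2 was 0.0125, Ssbp1 0.0587 and Kif3a -0.0098 and -0.0238. Quantile normalization gave Ssbp1 0.00053, and centring on filter positions gave Ssbp1 0.0027, Spag9 0.0109 and Rad18 (9108) -0.0029 (0.044). Fits without 1 mouse ran between -0.0735 and 0.01 for Aplp2 (16351), -0.286 and 0.0115 for Car2, -0.00175 and 0.067 for Fkbp5, -0.008 and 0.0283 for Kif3a (10745), -0.011 and 0.129 for Kif3a (12744), -0.113 and 0.00875 for Spag9 (16451), -0.0273 and 0.0578 for Ssbp1 (9710) and -0.002 and 0.0493 for Tanc2 (11260). Called features kept a lower mean in all alternatives run.

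No paired analysis was possible because the labels give no replicate numbers, and replicates were numbered in accession order. The title numbers run in 5 rounds that hold both ages and sexes, and the fit with these rounds as a block gave 14 lower and 0 higher features.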
